A study of Mus musculus with 4 samples.

Results

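Sarcolipin (Sln), phospholamban (Pln), the calcium pumps Atp2a1 and Atp2a2, the calsequestrins Casq1 and Casq2, and parvalbumin (Pvalb) were examined in quadriceps muscle of mice. They are 7 of the 22180 genes that the array annotation names, and were chosen by symbol. Each had 1 probe set paired with that symbol alone, so no choice between probe sets was needed. Their Entrez identifiers are 66402 (Sln), 18821 (Pln), 11937 (Atp2a1), 11938 (Atp2a2), 12372 (Casq1), 12373 (Casq2) and 19293 (Pvalb).

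Muscle relaxes when calcium is pumped from the cytosol back into the sarcoplasmic reticulum by the SERCA pumps. Fast fibres use the pump encoded by Atp2a1, and slow fibres and heart use the one encoded by Atp2a2. Sarcolipin and phospholamban are small membrane proteins that bind the pumps and lower their activity. Sln is known from atria, from developing muscle and from oxidative fibres, and Pln from heart and slow fibres. Inside the reticulum, calcium is held by calsequestrin, with Casq1 the main form of fast fibres and Casq2 that of heart and slow fibres. Parvalbumin is the soluble calcium buffer of mouse fast fibres.

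The study measured total RNA of 4 mice, 1 array each, in 2 groups. The NF90-NF45 double transgenic mice (dbTg) carried transgenes for both RNA-binding proteins and comprised 1 male (replicate 1) and 1 female (replicate 2), both 16 weeks old. The wild-type mice (WT) comprised 1 male of 17 to 18 weeks (replicate 1) and 1 female of 16 weeks (replicate 2). The labels name no strain, and the promoter that drives the transgenes is likewise not given in the sources used here. Within a group, sex, animal and replicate number cannot be told apart, and in WT neither can age. Expression is given as RMA values in log2 units, so a difference of 1 is a 2-fold change, and levels are compared for the same gene only. Array medians over all 41345 probe sets lay between 1.55 and 1.60. Ilf2, which encodes the transgene product NF45, read 10.36 and 10.16 in dbTg against 5.03 and 5.04 in WT (log2 difference 5.23, limma adjusted p = 7.2e-05). The skeletal muscle actin gene Acta1 read between 11.02 and 11.16 on all 4 arrays. The muscle creatine kinase gene Ckm read 9.85 and 9.30 in dbTg against 9.96 and 9.91 in WT (difference -0.36, limma adjusted p = 0.36).

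Of these genes, Sln rose in dbTg muscle, and it did so by a wide margin. Sln read 7.63 and 8.15 in dbTg, against 1.93 and 4.12 in WT. The dbTg values lay close together and above both WT values, while the WT mice were 2.18 apart. The mean was 7.89 ± 0.37 in dbTg and 3.02 ± 1.54 in WT (SD, n = 2 each). The difference was 4.87 (SE 0.63; limma adjusted p = 0.0213), or 29.3-fold with a 95% interval of 10.3-fold to 83.1-fold. Among the 13308 genes tested, it ranked as number 3 by size of the difference towards dbTg. The smallest gap between any dbTg and any WT array was 3.52, or 11.5-fold, and the largest was 6.22, or 74.7-fold. WT replicate 1 read near its array's median of 1.60, and the deposited values come without a detection call. Leaving out WT replicate 1 gave a difference of 3.78, and leaving out WT replicate 2 gave 5.96. Leaving out either dbTg array ended the call, with a limma adjusted p of 0.137 (replicate 1 out) and 0.228 (replicate 2 out). In a fit with 1 array left out, the group left with 1 array is assumed to vary like the other group. Robust variance estimation ended it too (adjusted p = 0.0713). Over all settings tried the adjusted p ranged from 1.1e-05 to 0.228.

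All 7 genes were tested and 1 was called, in either direction, against 2.21% of all tested genes. The 1 that was called rose, as did 2.01% of all tested genes, and none fell, against 0.203%. The groups did not overlap for 2 of the 7, Sln and Casq2, against 50.0% of all tested genes. Both were higher in dbTg, as were 33.7% of all tested genes. In 4 of the 7, the genotype difference had opposite signs in the male and the female pair, against 36.4%.

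**Figure D1:**
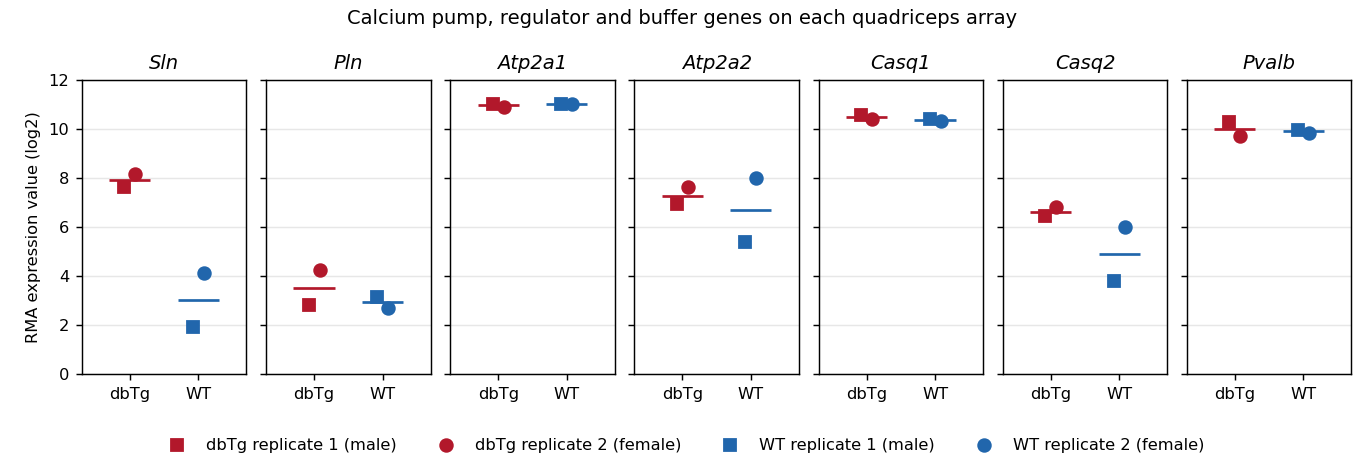
RMA expression value (log2, vertical axis) of each gene on each array, with dbTg in red and WT in blue, squares for replicate 1 (male), circles for replicate 2 (female) and a line at the group mean. Heights are not comparable between genes. Sln at 7.63 and 8.15 in dbTg stands clear of 1.93 and 4.12 in WT, the WT points of Sln, Atp2a2 and Casq2 are far apart, and Atp2a1, Casq1 and Pvalb are nearly level.

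Pln, the phospholamban that regulates the pump of heart and slow fibres, did not pass the test. It read 2.81 and 4.26 in dbTg against 3.17 and 2.71 in WT. The female dbTg mouse was the highest and the male dbTg mouse lay between the WT mice, so the groups overlapped. The difference was 0.59 (SE 0.46, limma adjusted p = 0.549), with an interval of -0.51 to 1.69. It depended on dbTg replicate 2, and was -0.13 without it and 1.32 without dbTg replicate 1. These data therefore leave room for a rise of up to 3.24-fold and for a fall to 0.704 of the WT level.

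The fast pump gene Atp2a1 was nearly level across the 4 mice. It read 11.01 and 10.90 in dbTg against 11.00 and 11.01 in WT. Its difference was -0.05 (SE 0.10, limma adjusted p = 0.838), and the interval of -0.30 to 0.19 spans 0.813-fold to 1.14-fold. The highest value on the arrays lay between 11.92 and 12.36, and the deposited values do not show whether probes of bright genes such as Atp2a1 were saturated.

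The slow and cardiac pump gene Atp2a2 varied more within WT than between the groups. It read 6.92 and 7.61 in dbTg against 5.40 and 8.01 in WT. Both dbTg values fell between the WT values, which were 2.61 apart. The difference was 0.56 (SE 0.75, limma adjusted p = 0.747), with an interval of -1.23 to 2.34. A single WT mouse set its direction. Without WT replicate 1 the difference was -0.75 (adjusted p = 0.147), and without WT replicate 2 it was 1.86 (adjusted p = 0.00806). Both fits take the spread from the dbTg mice, which were 0.69 apart, and leave out the WT gap of 2.61. Over all settings tried the adjusted p ranged from 0.00806 to 0.975.

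As a measure of unequal change of the 2 pump genes, Atp2a1 was subtracted from Atp2a2 on each array. The result was -4.09 and -3.30 in dbTg against -5.60 and -3.0 in WT. It averaged -3.69 ± 0.56 in dbTg and -4.30 ± 1.84 in WT (SD, n = 2 each), and the groups overlapped (difference 0.61, two-sided exact permutation p = 1). With 2 arrays against 2, this test cannot give a p below 0.333. Only changes of this measure between arrays can be read, not the ratio of the pumps.

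Among the calcium stores, Casq1, the main calsequestrin of fast fibres, read 10.55 and 10.40 in dbTg against 10.41 and 10.29 in WT. The groups overlapped, since dbTg replicate 2 minus WT replicate 1 was -0.0079. The difference was 0.13 (SE 0.12, limma adjusted p = 0.62; interval -0.15 to 0.40). Casq2, the calsequestrin of heart and slow fibres, read 6.45 and 6.80 in dbTg against 3.78 and 6.0 in WT. Both dbTg mice lay above both WT mice, by 0.45 at the closest and 3.02 at the widest. The difference was 1.73, or 3.33-fold (SE 0.63), with an interval of 0.23 to 3.24, a nominal p of 0.0296 and a limma adjusted p of 0.206, so it did not pass the test. A nominal p under 0.05 with a higher level in dbTg was found for 14.0% of all tested genes. The difference of Casq2 was 0.63 without WT replicate 1 (adjusted p = 0.132) and 2.84 without WT replicate 2 (adjusted p = 0.00042). These fits likewise rest on the spread of the dbTg mice, which were 0.35 apart, against 2.22 in WT. Over all settings its adjusted p ranged from 0.00042 to 0.63. Casq2 minus Casq1 was -4.10 and -3.60 in dbTg against -6.63 and -4.29 in WT, a difference of 1.61 with no overlap and the smallest p that the exact permutation test allows, 0.333.

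The promoters of these stores and of Pvalb are shown because the WT mice set them apart. Casq2 was 2.22 apart in WT, against 0.12 for its paralogue Casq1 and 0.13 for the fast-fibre gene Pvalb. Within dbTg Casq2 was 0.35 apart, Casq1 0.15 and Pvalb 0.55. RefSeq promoters (build GRCm38.p6, from 250 bases before to 50 after the gene's start, on the strand given) were held for 5 of the 7 genes, and those of Sln and Atp2a2 were not among them. Capitals mark each E-box, CANNTG, the site class bound by myogenic factors, and each match to the MEF2 motif, both searched on both strands; none of the marked matches overlap.
Casq2, chr3:102086165-102086464, plus strand: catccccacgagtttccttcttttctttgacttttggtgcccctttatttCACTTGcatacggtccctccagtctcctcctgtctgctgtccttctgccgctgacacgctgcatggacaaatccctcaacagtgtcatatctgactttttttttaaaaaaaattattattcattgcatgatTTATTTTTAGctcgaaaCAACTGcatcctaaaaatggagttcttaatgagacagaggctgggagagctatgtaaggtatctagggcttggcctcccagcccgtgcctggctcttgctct
Casq1, chr1:172219846-172220145, minus strand: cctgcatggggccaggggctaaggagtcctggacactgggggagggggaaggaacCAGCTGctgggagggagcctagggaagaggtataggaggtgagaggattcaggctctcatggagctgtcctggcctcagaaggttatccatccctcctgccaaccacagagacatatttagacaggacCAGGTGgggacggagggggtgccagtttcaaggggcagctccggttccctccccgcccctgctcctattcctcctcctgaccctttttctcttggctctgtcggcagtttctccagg
Pvalb, chr15:78206351-78206650, minus strand, the first of its 2 listed starts: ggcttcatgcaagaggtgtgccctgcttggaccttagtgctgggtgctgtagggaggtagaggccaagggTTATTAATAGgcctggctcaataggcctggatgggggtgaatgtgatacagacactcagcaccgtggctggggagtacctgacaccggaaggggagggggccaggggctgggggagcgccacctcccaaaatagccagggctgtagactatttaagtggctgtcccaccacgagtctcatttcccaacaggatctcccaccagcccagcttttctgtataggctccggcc
In Casq2 the MEF2 match began at base -69 and the E-boxes at -200 and -52, counted from the start site. Casq1 held E-boxes at -195 and -67 and no MEF2 match, and this Pvalb promoter held a MEF2 match at -180 and no E-box. The promoter of the other listed Pvalb start held E-boxes at -111 and 18 and no MEF2 match. Those of Pln, with E-boxes at -59 and 9, and of Atp2a1, with an E-box at -55, are not shown and held no MEF2 match. Of all 32851 promoters of this length, 3.19% held a MEF2 match and 72.3% an E-box. The CArG box of serum response factor, held by 1.63%, was in none of the promoters of the 5 genes. These are matches of letters and not measured binding sites.

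Pvalb read 10.26 and 9.71 in dbTg against 9.96 and 9.83 in WT. The dbTg mice lay on either side of the WT mice. The difference was 0.09 (SE 0.19, limma adjusted p = 0.851), with an interval of -0.36 to 0.54, or 0.780-fold to 1.45-fold.

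**Figure D2:**
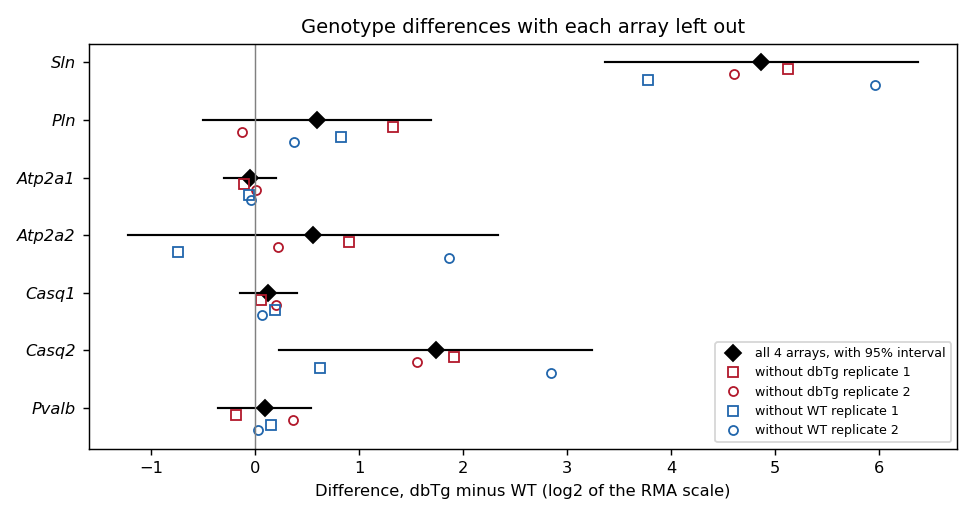
Difference in log2 expression, dbTg minus WT (horizontal axis), for the 7 genes: filled diamonds with bars are the fit to all 4 arrays with its 95% interval, and open symbols are the fits without the array named in the key. The interval of Sln runs from 3.36 to 6.38, and the open symbols of Atp2a2 lie on both sides of 0, at -0.75 without WT replicate 1 and at 1.86 without WT replicate 2.

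Sln, Atp2a2 and Casq2 shared a wide gap within WT. WT replicate 2 exceeded WT replicate 1 by 2.18 for Sln, 2.61 for Atp2a2 and 2.22 for Casq2. A gap of at least 2 between the WT mice was found for these 3 of the 7 genes and for 48 of all 13308 tested, or 0.361%. Within dbTg the gaps were 0.52, 0.69 and 0.35 in the same gene order. None of the 7 genes reached a gap of 2 between the dbTg mice, and 16 of all tested genes did, or 0.120%. Pln did not share the pattern, since WT replicate 2 was its lowest array.

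Genes of slow fibres moved with replicate number in both groups. Their mean over 10 listed genes was 3.0 and 4.27 on dbTg arrays 1 and 2, and 2.66 and 4.66 on WT arrays 1 and 2. Myh7, the slow myosin heavy chain, read 1.62 and 5.33 in dbTg against 2.30 and 6.29 in WT. Tnnc1, the slow troponin C, read 3.14 and 5.41 in dbTg against 2.19 and 6.54 in WT. Replicate 2 exceeded replicate 1 for 9 of the 10 genes in dbTg and for 8 of 10 in WT, and 5 of the 10 were at least 2 apart in WT. In whole muscle, fewer fibres of a type and less RNA per fibre cannot be told apart.

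Between genotypes, the slow-fibre list had 0 of 10 genes past the threshold, 0 at a nominal p under 0.05, and a median difference of -0.07, against 0.089 over all tested genes. Tnni1, the slow troponin I, differed by 0.20 (limma adjusted p = 0.898) and Myh7 by -0.82 (adjusted p = 0.823), and both turned sign when certain single arrays were left out. By smallest p the listed genes were led by Fabp3, a fatty acid binding protein of heart and slow fibres (0.50, adjusted p = 0.333), and Myoz2 (1.23, adjusted p = 0.517). Fabp3 has 2 probe sets, and with their mean its difference was 0.17. Myoz2, a Z-disc protein of slow fibres that binds calcineurin, read 6.55 and 7.41 in dbTg against 4.19 and 7.31 in WT. WT replicate 1 was its lowest array, as it was for Sln, Atp2a2 and Casq2. Of 13 fast-fibre genes 0 passed the threshold, and their median difference was -0.04. At a nominal p under 0.05, 1 was higher, against 14.0% of all tested genes. The 1 was Myh1, the myosin heavy chain of fast IIx fibres, which read 10.05 and 10.27 in dbTg against 9.43 and 9.89 in WT (difference 0.51, limma adjusted p = 0.191). Pgam2, the muscle phosphoglycerate mutase, differed by -0.36 (adjusted p = 0.268). Myh2, the myosin of fast oxidative fibres, had a wide WT gap too, with 8.24 and 9.63 in dbTg against 7.83 and 9.90 in WT. Myh4, the fastest myosin heavy chain, read 11.15 and 11.04 in dbTg against 11.10 and 11.10 in WT (difference -0.01, limma adjusted p = 0.981; 0.02 after median centring). Actn3, the alpha-actinin of fast fibres, differed by -0.22 (adjusted p = 0.541; 0.02 without dbTg replicate 2).

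The difference of Sln was set beside that of the slow-fibre genes. Between dbTg array 1 and WT array 2 the slow-fibre mean differed by -1.65 and Sln by 3.52. In the female pair the slow-fibre means differed by -0.39 and Sln by 4.04, and in the male pair by 0.35 and 5.70. Between dbTg array 2 and WT array 1 they differed by 1.61 and 6.22. These pairings recombine the same 4 arrays. For both measures replicate 2 was above replicate 1 in both groups, by more in WT, which fixes the shared order of the differences. That Sln was higher in dbTg in all 4 restates that its groups did not overlap. With the slow-fibre mean of each array as a covariate, a setting chosen after these values were seen, the difference of Sln was 4.89 (limma adjusted p = 0.00138). In that fit Casq2 differed by 1.75 and passed the threshold (adjusted p = 0.0344), and Atp2a2 differed by 0.58 and did not (adjusted p = 0.286). This fit has 1 residual degree of freedom per gene. The covariate, 3.0 and 4.27 in dbTg against 2.66 and 4.66 in WT, was nearly balanced between the groups. It could therefore hardly move the difference of Sln, which was 4.87 without it. The covariate took up spread within the groups, and the SE of Sln was 0.26 with it and 0.63 without it. The part of slow-fibre content in the difference of Sln was not tested.

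**Figure D3:**
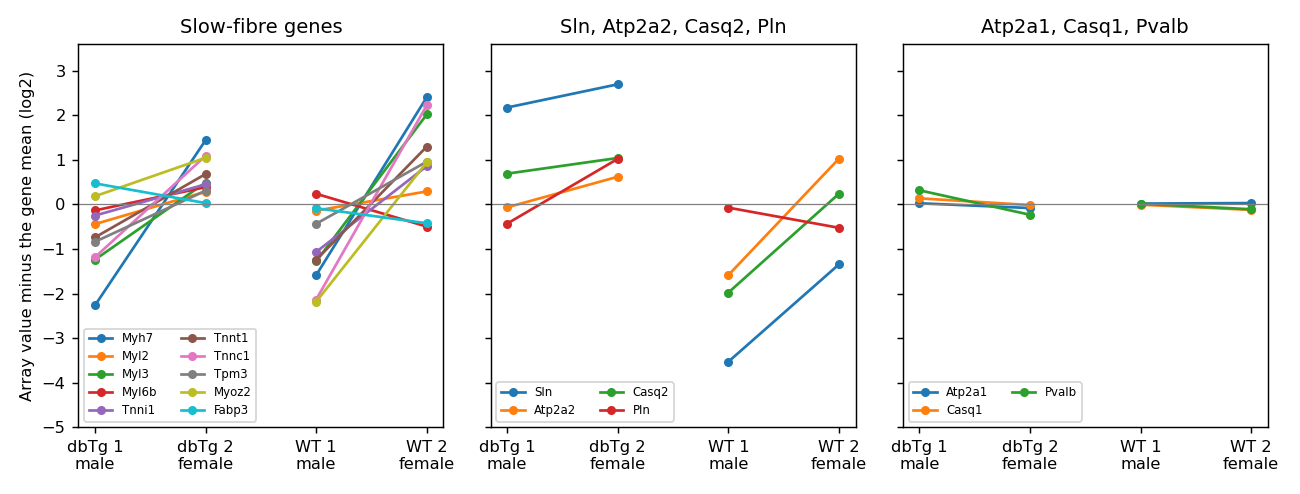
Each gene's array value minus its own mean over the 4 arrays (log2, vertical axis), for slow-fibre genes (left), Sln, Atp2a2, Casq2 and Pln (middle) and Atp2a1, Casq1 and Pvalb (right); lines join the mice of a group. Most slow-fibre genes climb with replicate number in both groups, Sln is high on both dbTg arrays, and the genes at the right stay near 0.

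Several markers of other states and cell types were higher in the same dbTg mice as Sln. Of 13 tested genes of embryonic and regenerating muscle, 9 rose, with a median difference of 2.45, against 2.01% of all tested genes that rose. Among them were Ankrd1, a stress-induced ankyrin repeat protein (4.61, limma adjusted p = 0.000119), Myh3, the embryonic myosin heavy chain (4.03, adjusted p = 0.00309), Ncam1, a neural cell adhesion molecule (3.0, adjusted p = 0.00309), and Tnnt2, the cardiac troponin T of embryonic muscle (2.45, adjusted p = 0.00309). Of 14 tested macrophage and leukocyte markers, 10 rose (4 with the replicate number as a block), with a median of 1.81, led by Ctss (4.23), Cd68 (3.76), Ptprc (2.79) and Lyz2 (2.32). The 15 such markers on the array summed to 69.71 and 66.63 in dbTg and to 41.45 and 39.49 in WT. Of 6 tested adipocyte markers 2 rose, the adipokine genes Adipoq (1.47, limma adjusted p = 0.0376) and Lep (1.31, adjusted p = 0.0443). Both calls ended with the replicate number as a block (adjusted p = 0.0793 for Adipoq and 0.1 for Lep) and after quantile normalization (0.0651 for each), in ranges over all settings of 0.0139 to 0.259 and 0.0152 to 0.337 in that order. Myh3 and Lep had WT means of 1.44 and 1.26, under the intensity filter of 1.48, and were tested through their dbTg values. The sizes of their differences therefore rest on WT levels not shown to be above background. A gene that enters this way can only come out higher, and the counts of 9 embryonic and 2 adipocyte genes that rose include these. Ankrd1 and Ctss kept their calls without either dbTg array, and the other 8 called genes named here lost theirs. Of 6 fibroblast markers (median 0.71) 0 passed the threshold and 4 were higher at a nominal p under 0.05, against 14.0% of all tested genes, led by Dpt (0.74, adjusted p = 0.0542) and Col3a1 (1.24, adjusted p = 0.0601). Of 8 endothelial markers (median -0.50) 0 passed and 4 were lower, against 4.64%, led by Cdh5 (-0.85, adjusted p = 0.0929) and Kdr (-0.85, adjusted p = 0.184). Of 7 smooth muscle markers (median 0.15) 0 passed. At a nominal p under 0.05, 2 were higher and 1 was lower, against 14.0% and 4.64% of all tested genes. The 2 higher were Acta2 (0.91, adjusted p = 0.153) and Des (0.41, adjusted p = 0.176). Des was also listed among genes that define skeletal muscle and read between 9.67 and 10.29, so its signal cannot be assigned to smooth muscle. The part of these cells and states in the difference of Sln was not tested. Heart, where Sln is also made, was checked by its markers. The atrial light chain Myl7 read between 0.99 and 1.51 and the alpha myosin Myh6 between 0.81 and 1.19 on all 4 arrays, under the intensity filter of 1.48 on their means. Of 11 heart markers 5 were tested and 0 passed the threshold. At a nominal p under 0.05, 1 was higher, against 14.0% of all tested genes. All 5 differences were positive, with a median of 0.30, while 60.5% of all tested genes had positive ones. Nppa, the atrial natriuretic peptide, read 2.20 and 1.94 in dbTg against 1.63 and 1.64 in WT (0.44, limma adjusted p = 0.295). Nppb, a natriuretic peptide of the ventricle, read 3.50 and 2.53 in dbTg against 1.39 and 1.55 in WT (1.54, adjusted p = 0.072; range 0.046, without WT replicate 2 and so with the dbTg spread, to 0.258). Its WT mean of 1.47 is under the filter, so it was tested through its dbTg values and could only come out higher.

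Among other regulators of the SERCA pumps, 0 genes passed the threshold. Of 14 listed symbols, older names counted apart, 11 were tested, with a median difference of -0.28. At a nominal p under 0.05 there were 1 higher and 3 lower, against 14.0% higher and 4.64% lower of all tested genes. Mrln encodes myoregulin, a small membrane protein that inhibits the pump of skeletal muscle as sarcolipin does. It read 4.41 and 3.19 in dbTg against 5.69 and 5.35 in WT. Both dbTg mice lay below both WT mice. Its difference was -1.73 (SE 0.39, limma adjusted p = 0.079), and ranged from -2.34 to -1.12 with 1 array left out. Mrln passed the threshold with the slow-fibre covariate, chosen after the values were seen (adjusted p = 0.0361), but not with the replicate block (0.0854). Camk2d, a calcium and calmodulin-dependent kinase that phosphorylates phospholamban in heart, differed by 0.95 (adjusted p = 0.0815; range 0.0402, without WT replicate 1 and so with the dbTg spread, to 0.422). Its paralogue Camk2g, named after its values were seen, read 5.90 and 5.41 in dbTg against 6.66 and 6.41 in WT (-0.88, adjusted p = 0.0921).

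Among 8 tested genes of other calcium buffers, 0 passed the threshold and the median was 0.15. At a nominal p under 0.05, 3 were higher and 1 was lower, against 14.0% higher and 4.64% lower of all tested genes. Rcn1 and Rcn2, calcium-binding proteins of the endoplasmic reticulum lumen, differed by 1.58 (limma adjusted p = 0.0655) and 0.84 (adjusted p = 0.0722). For Rcn1 the adjusted p ranged from 0.0238, without WT replicate 2 and so with the dbTg spread, to 0.303.

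Genes of the calcium release unit, the channels and anchors that open the store, gave 0 calls. Of 11 tested, 4 had positive and 7 negative differences, while 60.5% of all tested genes had positive ones, and this was not tested. At a nominal p under 0.05, 5 were lower and 1 was higher, against 4.64% lower and 14.0% higher of all tested genes. Their median was -0.36. Ryr1, the release channel, read 8.89 and 8.41 in dbTg against 9.51 and 9.54 in WT. No dbTg value reached a WT value, and the difference was -0.88 (SE 0.18, limma adjusted p = 0.0597), in a range of 0.0416 to 0.324 over all settings, and -0.66 with the mean of its 2 probe sets. Jph1, the junctophilin that ties the reticulum to the transverse tubules, differed by -0.49 (adjusted p = 0.138).

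Calcium entry, extrusion and mitochondrial uptake had 0 of 17 tested genes past the threshold and a median of -0.02. At a nominal p under 0.05, 1 gene was lower, against 4.64% of all tested genes. Atp2c1, a Golgi calcium pump, differed by -0.50 (limma adjusted p = 0.26) and Micu2, a regulator of the mitochondrial uniporter, by 0.33 (adjusted p = 0.372). Of 11 tested genes of calcineurin and NFAT, which turn calcium signals into transcription, 1 rose, against 2.01% of all tested genes. At a nominal p under 0.05, 1 was higher and 2 were lower, against 14.0% higher and 4.64% lower of all tested genes. Of the 11 differences, 3 were positive and 8 negative, while 60.5% of all tested genes had positive ones. The gene that rose was Rcan1, a calcineurin inhibitor that is itself induced by calcineurin. Rcan1 read 6.45 and 6.45 in dbTg against 5.21 and 4.79 in WT, with both dbTg mice above both WT mice. It was 2.73-fold higher in dbTg (log2 difference 1.45, SE 0.20, limma adjusted p = 0.0239). Its call ended when either dbTg array was left out (adjusted p of 0.193 with replicate 1 out and 0.259 with replicate 2 out), in a range of 0.00319 to 0.259 over all settings. The median of this list was -0.04.

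**Figure D4:**
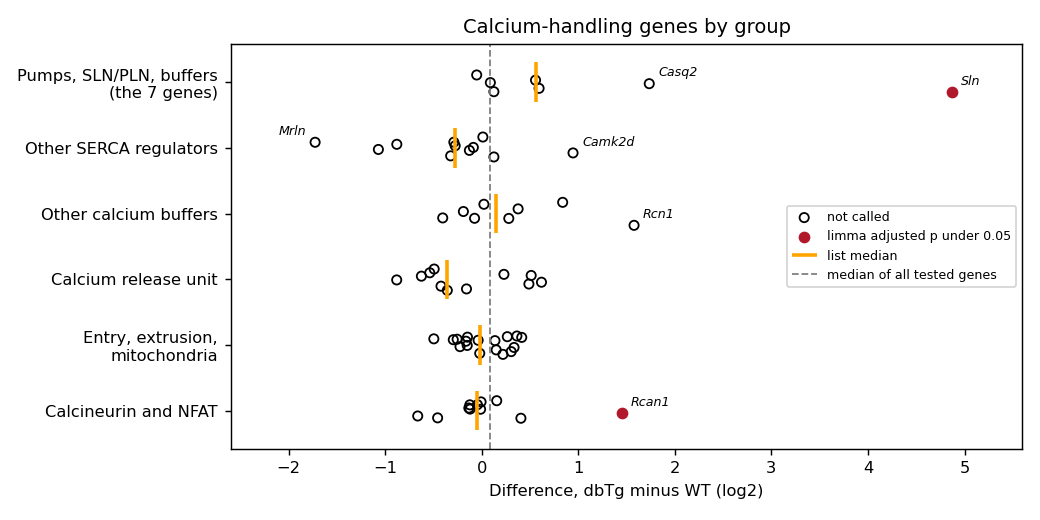
Difference in log2 expression, dbTg minus WT (horizontal axis), of each tested gene in 6 groups of calcium-handling genes; filled points passed the threshold, open points did not, orange bars are medians and the dashed line is the median of all tested genes, 0.089. Sln (4.87) and Rcan1 (1.45) are the filled points, and Mrln (-1.73) is the lowest.

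By the pattern over the 4 arrays, the genes nearest to Sln were Cd226, Ctss, Ankrd1, Ilf2 and Mt2. Likeness was the root mean square distance between array values after each gene's mean was subtracted, and it was 0.70, 0.77, 0.80, 0.83 and 0.97 in that order, over 4 arrays. Predicted genes, microRNA and olfactory receptor genes were left out. Cd226, an adhesion receptor of lymphocytes, read 7.01 and 6.98 in dbTg against 1.03 and 1.67 in WT, a WT mean of 1.35 that is under the filter. Mt2, a metallothionein, was alone among the 5 in sharing the wide WT gap of Sln. It read 9.21 and 8.85 in dbTg against 4.51 and 7.36 in WT, and did not pass the test (difference 3.09, limma adjusted p = 0.105). Since the distance takes in the size of the change, genes with a large difference between genotypes are favoured by construction.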

How the data were processed

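Quadriceps RNA was hybridised to Affymetrix whole-transcript arrays, 1 per mouse. The deposited values are log2 RMA values, and the submitters' processing notes name Affymetrix Expression Console as the authors' tool (version and genome build: not given in the sources used here). Of 41345 probe sets, 23521 had exactly 1 gene symbol in the platform annotation. Where a gene had several, the brightest by mean stood for it, and genes with a mean at or above the 40th percentile (1.48) were tested. The groups were fitted in limma 3.58.1 under R 4.3.3 (eBayes with an intensity trend; 2 residual and 4.76 prior degrees of freedom), two-sided, with Benjamini-Hochberg adjustment over 13308 genes and a threshold of 0.05. Nominal p-values are those before adjustment. Intervals are 95% and use the moderated SE. The number of arrays limits precision.

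The fit was tested on simulated data. Alternatives were each array left out, replicate number as a blocking term, quantile normalization, median centring, other filters, other eBayes settings, averaging a gene's probe sets, and a slow-fibre covariate, the last chosen after the values were seen. The genes, lists and tests were chosen with earlier results of these data known, so none is independent support. From each list up to 4 called genes are named, or else the 2 with the smallest p, along with fixed check genes and the 5 genes nearest to Sln. Acta1, Tnnc1, Myh2 and Camk2g were named after their values were seen. Nothing in the labels ties same-numbered mice beyond their sex. The limma p-values set each difference against the gene's spread within groups, moderated by that of all tested genes. The mice of a group also differ in sex.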

Additional observations from a re-analysis of the deposited data

Results flagged for a closer look

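The genotype difference took opposite directions in the sexes for 4 of the 7 genes, each seen in 1 pair of mice per sex and not tested. Pln differed by 1.55 in the female pair and by -0.36 in the male pair, and Atp2a2 by -0.41 in the female pair and 1.52 in the male pair. For Atp2a1 the differences were -0.11 in the female and 0.0068 in the male pair, and for Pvalb -0.12 and 0.30 in the same order. Opposite signs were found for 36.4% of all tested genes. The WT male was also older than the other mice. Slow-fibre means were low in both males, at 2.66 in WT and 3.0 in dbTg, against 4.66 and 4.27 in the WT and dbTg females. The part of age and fibre content in these differences was not tested.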

How the results depend on the processing

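The number of genes called, 294, was 65 with the replicate block, 127 after quantile normalization, 172 without an intensity filter, 193 with the filter at the 20th percentile and 501 with the slow-fibre covariate, and ranged from 4 to 766 when 1 array was left out, with 4 called without either dbTg array; the cause was not tested. The difference of Sln stayed between 3.78 and 5.96 when 1 array was left out, where the group left with 1 array borrows the spread of the other. At 4.87 with robust eBayes it lost its call, and with the replicate block it was 4.87 and called (limma adjusted p = 0.0283). The block ended the calls of Rcan1 (adjusted p = 0.0631), Adipoq and Lep. With 1 array left out, Pln ranged from -0.13 to 1.32 (1.55 with females alone, -0.36 with males alone), Atp2a1 from -0.11 to 0.0013 (0.0068 with males alone), Atp2a2 from -0.75 to 1.86, Casq1 from 0.05 to 0.20, Casq2 from 0.63 to 2.84 and Pvalb from -0.19 to 0.36. Casq2 was also called with the covariate, at 1.75. The pump measure ranged from -0.69 to 1.91 and the calsequestrin measure from 0.44 to 2.78. Among other genes Myh7 ranged from -2.82 to 1.17, Tnni1 from -0.76 to 1.17, Myoz2 from -0.33 to 2.80, Actn3 from -0.45 to 0.022 and Myh4 from -0.060 to 0.046, and Myh4 was 0.025 after median centring. The replicate block changed no call among the 7 genes; same-numbered deviations from group means correlated at 0.0486 over genes. As each of the 7 genes has 1 probe set, using every probe set or their mean leaves their values as they are.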
